A study of Drosophila melanogaster with 4 samples.

Results

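The intergenic peaks near genes were 379 of the 5211 optimal peaks of a chromatin immunoprecipitation and sequencing (ChIP-seq) study of CG1233 in Drosophila melanogaster embryos, or 7.27% (95% Clopper-Pearson interval 6.58 to 8.01). A peak belonged to them when its summit lay outside every annotated gene and its nearest transcription start site (TSS), of any gene, was more than 500 bp and at most 3000 bp away. The measured strength of a peak played no part in that choice. The material was whole embryos of pooled sex, 0 to 24 hours old, from a transgenic line that stably carries CG1233 with GFP fused to its C-terminus. All 4 biological replicates came from this line, and they form 1 group, so the data hold no second genotype or treatment. The fusion is a transgene in an otherwise intact embryo, and each library mixes all embryonic stages and all cell types.

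Each sample's description calls the library an input control, whereas its antibody entry names CG1233 and its assay entry names transcription factor ChIP-seq. The values below were read as ChIP calls, and this disagreement in the labels could not be settled from the files. Read numbers are absent from the lists, and the depth behind a peak is unknown. Each replicate list and the list pooled over the replicates hold 30000 calls, and the optimal list was the authors' set after filtering for irreproducible discovery rate (IDR). Its 5211 peaks were the strongest 5211 calls of the pooled list. For holding, each replicate's list was limited to its own 5211 strongest calls, and a peak counted as held where the summit of such a call fell within its bounds. The optimal list was derived from the same 4 libraries, so part of this holding is built in.

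Sequence between genes carries enhancers, insulators, silencers and the outer parts of promoters, and in the compact fly genome most of it lies within a few kilobases of a gene. A gap between genes is called divergent where both flanking genes start at it, convergent where both end at it and tandem where the genes point the same way. Divergent gaps thus hold the upstream sequence of both flanking genes, whereas the flanking genes of a convergent gap end there, though the nearest TSS may belong to a gene other than these. Nearness to a start site does not tell which gene a site regulates, and the gene names below give position only.

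Sequences of 101 bp centred on the summit are printed for the 6 strongest peaks, which show how much base composition varied among strong sites, and for members of the Rh5 and chinmo gaps, where an A/T-rich and a G/C-richer summit lay in the same gap. They were read from the dm6 reference, on the plus strand and 5′ to 3′. Capitals mark unbroken runs of at least 6 A or T bases, and each line opens with the gene of the nearest TSS.
sp3, rank 36, chr3R:21520330-21520430, + strand: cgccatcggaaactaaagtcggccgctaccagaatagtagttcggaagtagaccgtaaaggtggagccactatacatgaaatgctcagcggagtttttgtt
jp, rank 39, chr2L:9567452-9567552, + strand: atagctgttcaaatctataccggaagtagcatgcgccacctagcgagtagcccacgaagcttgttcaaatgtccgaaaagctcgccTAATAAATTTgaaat
lncRNA:CR45643, rank 65, chr3R:16222457-16222557, + strand: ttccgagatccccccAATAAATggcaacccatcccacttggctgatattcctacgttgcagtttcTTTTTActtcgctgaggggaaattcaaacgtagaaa
ph-d, rank 84, chrX:2124038-2124138, + strand: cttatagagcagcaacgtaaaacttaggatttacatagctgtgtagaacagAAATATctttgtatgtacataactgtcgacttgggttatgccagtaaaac
DNAlig3, rank 126, chr3R:12403086-12403186, + strand: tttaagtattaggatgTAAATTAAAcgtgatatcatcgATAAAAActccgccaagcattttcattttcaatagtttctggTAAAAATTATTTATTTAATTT
CG8519, rank 152, chr3L:6709129-6709229, + strand: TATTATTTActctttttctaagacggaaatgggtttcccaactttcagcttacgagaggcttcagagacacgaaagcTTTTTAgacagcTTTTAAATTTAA
Rh5, rank 254, chr2L:12006775-12006875, + strand: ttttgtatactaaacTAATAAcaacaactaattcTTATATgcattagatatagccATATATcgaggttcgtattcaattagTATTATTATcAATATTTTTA
Rh5, rank 1381, chr2L:12007432-12007532, + strand: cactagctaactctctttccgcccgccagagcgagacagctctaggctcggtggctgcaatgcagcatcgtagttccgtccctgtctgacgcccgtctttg
chinmo, rank 369, chr2L:1649379-1649479, + strand: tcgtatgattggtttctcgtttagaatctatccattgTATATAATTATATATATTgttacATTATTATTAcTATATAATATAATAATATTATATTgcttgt
lncRNA:CR45695, rank 585, chr2L:1648723-1648823, + strand: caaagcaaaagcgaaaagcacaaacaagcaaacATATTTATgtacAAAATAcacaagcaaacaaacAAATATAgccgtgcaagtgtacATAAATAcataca
chinmo, rank 2556, chr2L:1649589-1649689, + strand: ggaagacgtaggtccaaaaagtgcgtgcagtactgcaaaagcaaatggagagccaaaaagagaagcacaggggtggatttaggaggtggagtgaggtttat

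The 6 strongest summits did not share a base composition. The windows near sp3 and jp held 47.5% and 43.6% G and C (GC content), against 38.1% and 42.6% in their own flanks centred 500 bp to either side. The sp3 window had no A/T run of 6 or more, and the jp window had a single run of 10. By contrast, the window near DNAlig3 had a GC content of 23.8% against 41.6% in its flanks, with a longest A/T run of 21. The most A/T-rich of the printed windows was that of rank 369 near chinmo, at 18.8% GC and a longest run of 24.

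The strongest peak of all 379 had rank 36 in the optimal list and its summit on chromosome 3R at 21520380 (dm6), 548 bp upstream of the TSS of sp3. C15, a homeobox gene, flanks the same gap of 8113 bp on its other side. The ranks of its strongest call were 49, 32, 84 and 24 in replicates 1 to 4, so it was among the 100 strongest calls of every replicate. The peak of rank 39 lay 752 bp upstream of jp, which encodes junctophilin, a protein that holds the plasma membrane and the endoplasmic reticulum together. Its replicate ranks were 29, 42, 50 and 43, the narrowest range of the 4 strongest members. Rank 65 lay 888 bp upstream of the long noncoding RNA gene lncRNA:CR45643, with replicate ranks 37, 71, 48 and 169.

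On the X chromosome, the peak of rank 84 lay between the Polycomb group genes ph-p and ph-d, the tandem copies of polyhomeotic, whose proteins are subunits of the repressive complex PRC1. Its summit at 2124088 was 802 bp upstream of the TSS of ph-d, and its replicate ranks were 193, 78, 405 and 50. Replicates 2 and 4 ranked it above replicates 1 and 3. A further summit of the same interval, of rank 1054, lay 228 bp away and was matched by the same replicate calls, so the pair gives 1 measurement and not 2. In total 36 of the 379 members had an interval that overlapped another optimal peak and could take the same replicate call.

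Rank 126 lay between the converging 3′ ends of Sol1 and Cyp9f2, in a gap of 437 bp, and the nearest TSS, 1297 bp away, was that of DNAlig3, a DNA ligase gene. Its replicate ranks were 175, 126, 83 and 123. Rank 152 lay past the 3′ end of CG8519, 1594 bp downstream of its TSS, and the other gene of that convergent gap was ple, which encodes tyrosine hydroxylase, the enzyme of the rate-limiting step of dopamine synthesis. Its replicate ranks were 192, 112, 380 and 141. Rank 244 lay between Rim, which encodes an active zone protein of synapses, and the RNA-binding protein gene cpo, 599 bp upstream of cpo. Its replicate ranks were 482, 176, 527 and 261, with replicates 2 and 4 again the stronger.

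**Figure D1:**
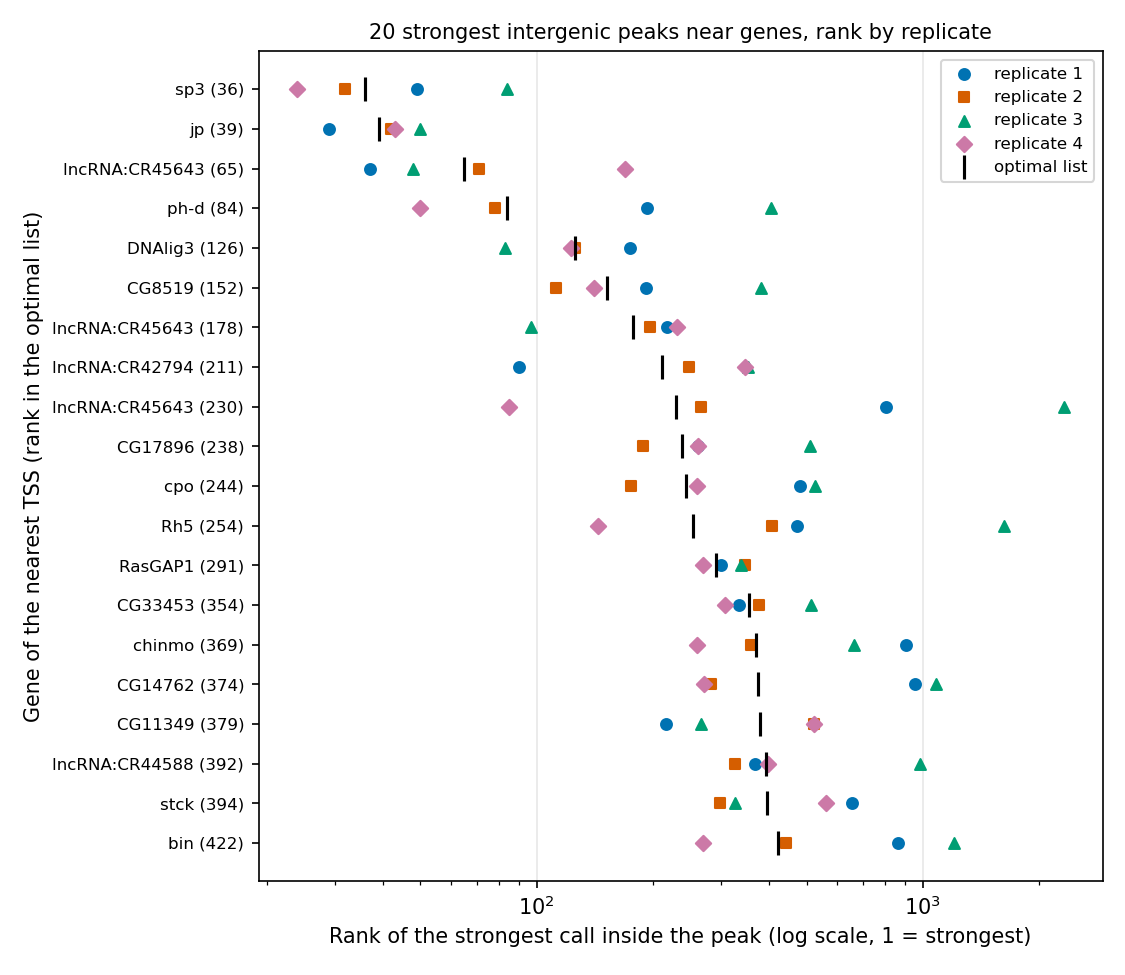
Ranks of the 20 strongest intergenic peaks near genes in the 4 replicates, on a log axis where 1 is the strongest call; each row is a peak, named by the gene of its nearest TSS with its rank in the optimal list. The row of sp3 spans ranks 24 to 84, whereas the row of lncRNA:CR45643 with rank 230 spans 85 to 2322, with its lowest ranks in replicates 1 and 3.

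The other peaks among the 20 strongest were all held by the 4 replicates. Rank 211 lay between lncRNA:CR42794 and its divergent neighbour CG3149, with replicate ranks 90, 248, 353 and 346. Rank 238 lay between CG17896 and CG17778, with replicate ranks 262, 189, 510 and 262. Rank 291 lay between RasGAP1, which encodes a Ras GTPase-activating protein, and CG10809, with replicate ranks 300, 346, 338 and 270. Its replicate ranks thus spanned fewer places than those of rank 211 or 238.

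Next in order stood CG33453, with the neighbour lncRNA:CR44432, at rank 354 and replicate ranks of 334, 377, 514 and 308. CG14762, which shares its gap with mir-4981, followed at rank 374 with replicate ranks of 952, 283, 1084 and 271. CG11349, with the neighbour CG7465, followed at rank 379 with replicate ranks of 216, 522, 266 and 523. Replicates 1 and 3 ranked the peak near CG14762 below replicates 2 and 4, and ranked the peak near CG11349 above them. Rank 394 lay between the autophagy gene Atg13 and stck, which encodes the integrin adaptor PINCH, with replicate ranks 655, 298, 326 and 562. Rank 422 lay 1363 bp upstream of bin (biniou), the FoxF factor of the visceral mesoderm, with replicate ranks 861, 442, 1206 and 269.

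Some gaps held several of these peaks. The 379 summits fell into 321 gaps, of which 46 held more than 1, and 275 members were alone in their gap. The gap between lncRNA:CR45641 and lncRNA:CR45643 on 3R, of 8437 bp, held 4, with ranks 65, 230, 1291 and 4107. A further member, of rank 178, lay between lncRNA:CR45643 and tara, on the other side of that noncoding gene, with replicate ranks 217, 197, 97 and 231. tara encodes a nuclear protein that acts with the trithorax group. Strength around lncRNA:CR45643 differed between replicates: the peak of rank 230 had replicate ranks 802, 267, 2322 and 85, and that of rank 1291 had a call in replicate 4 only, of rank 202. The peak of rank 4107 had replicate ranks 4384, 3493, 23421 and 2835.

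The divergent gap of 5886 bp between Hacd1, which encodes an enzyme of very long chain fatty acid synthesis, and Rh5, a rhodopsin gene of the eye, also held 4. Their ranks were 254, 1301, 1381 and 3799. The peak of rank 254, 1328 bp upstream of Rh5, had replicate ranks 472, 406, 1626 and 144, and its window had a GC content of 21.8% against 53.5% in its flanks. The peak of rank 1381, 657 bp from it, had replicate ranks 819, 1842, 801 and 2739, and its window had a GC content of 59.4% against 31.7% in its flanks. Replicate 4 ranked the A/T-rich summit highest and the G/C-rich summit lowest of the 4 replicates. Rank 1301 had replicate ranks 600, 2344, 1076 and 1586. That of rank 3799 had ranks 2650, 3661 and 3853 in replicates 1, 2 and 4 and no call in replicate 3. The next gap, between Rh5 and lncRNA:CR44588, held 3 more, with ranks 392, 2177 and 3952.

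The divergent gap of 4094 bp between lncRNA:CR45695 and chinmo held 3 summits within 866 bp. chinmo encodes a zinc finger protein of the BTB class that marks early-born neurons. The A/T-rich summit of rank 369 had replicate ranks 907, 360, 664 and 260. The summit of rank 585 had replicate ranks 261, 784, 442 and 949, the opposite order of the replicate pairs. The summit of rank 2556 lay 210 bp from that of rank 369 and shared its calls in replicates 1 and 2, with ranks 9669 and 1293 in replicates 3 and 4.

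Most members lay upstream of their nearest gene. The summit was upstream of the nearest TSS at 275 members, or 72.6% (95% interval 67.8 to 77.0), and downstream of it, past the 3′ end of the gene, at 104. Tandem gaps held 202 members, of which 150 were upstream and 52 downstream. Convergent gaps held 59, of which 7 were upstream and 52 downstream. Divergent gaps held 118, and all were upstream, since both flanking genes start at such a gap. A downstream summit had to lie past the 3′ end of its gene and still within the upper distance bound. The placement rule itself can thus favour upstream summits. Whether weaker pooled calls that met the rule, or all sequence that met it, have a lower upstream share was not tested. The gaps had a median length of 5187 bp, with quartiles of 2691 and 8939 bp. The median distance from the nearest TSS was 1300 bp, with quartiles of 734 and 2015.5 bp.

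Calls of this placement were more often strong the closer they lay to a start site. Of 2895 pooled calls that met the rule, 379 were in the optimal list, or 13.1% (95% interval 11.9 to 14.4), against 17.4% of all pooled calls. The corresponding shares were 27.6% of promoter calls (summit within 500 bp of a TSS), 14.9% of intron calls, 10.1% of intergenic calls over 3000 bp away and 7.32% of exon calls. Between 500 and 1000 bp from the TSS, 143 of 820 pooled calls were optimal, or 17.4% (14.9 to 20.2). Between 2500 and 3000 bp, 34 of 399 were, or 8.52% (5.97 to 11.7). In the replicates' own lists, 16.1% ± 0.802 (SD, n = 4) of such calls in the nearest bin were among the 5211 strongest, and 9.51% ± 2.01 in the farthest. The nearest bin was above the farthest in all 4 replicates, without overlap, though the bin of 2000 to 2500 bp, at 12.9% ± 1.09, lay above that of 1500 to 2000 bp, at 11.2% ± 1.16. These intervals cover counting error only.

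**Figure D2:**
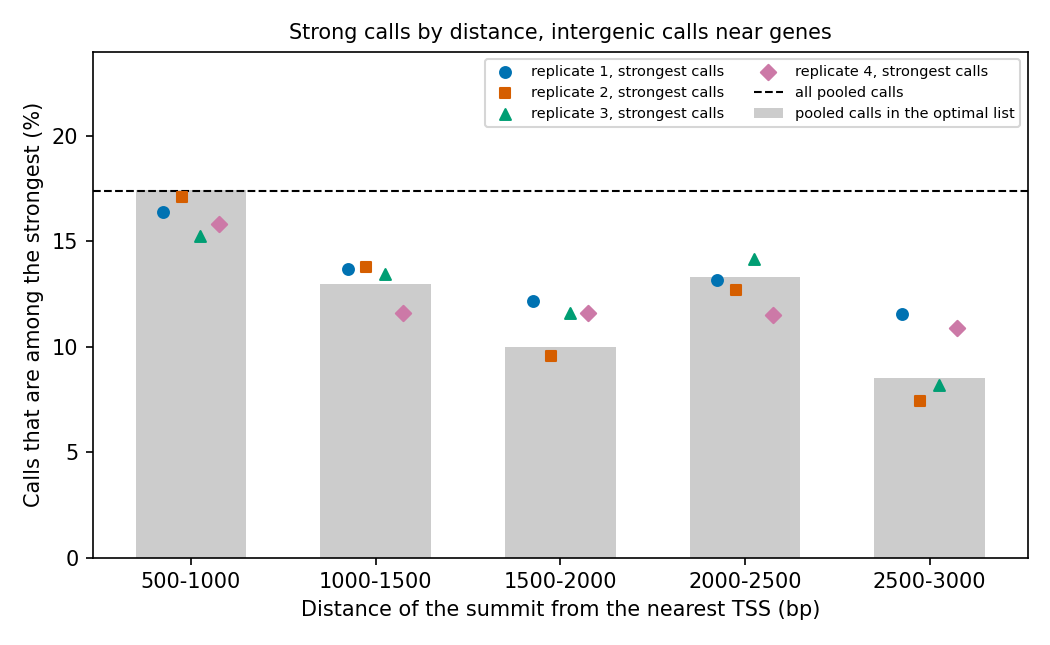
Share of intergenic calls near genes that were strong, by distance of the summit from the nearest TSS; bars give pooled calls in the optimal list, points give each replicate's calls among its own 5211 strongest, and the dashed line marks the 17.4% of all pooled calls. The bar falls from 17.4% in the nearest bin to 8.52% in the farthest, with a step up at 2000 to 2500 bp.

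Ranks were spread widely on both sides of the bounds of the rule. Just inside the lower bound were the peaks near the gene by (blistery), which encodes the focal adhesion protein tensin, and near tnc, each 501 bp from the TSS, with ranks 662 and 4998, and near sff at 505 bp with rank 2333. Just outside it were the peaks near lncRNA:CR45277 and CG5890, each at 495 bp, with ranks 1860 and 5159, and near CG43901 at 498 bp with rank 2531. At the upper bound the last members were near CG42713 at 2999 bp, CG17570 at 2947 bp and PpV at 2932 bp, with ranks 3725, 2219 and 4264. The next peaks beyond it were near Ugt303A1 at 3021 bp, bor at 3041 bp and edl at 3076 bp, with ranks 3802, 1474 and 4345.

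A strong call was less often of this placement than a weak call, in every replicate. The share of the replicate's strongest calls that met the rule was 6.39%, 7.54%, 6.36% and 7.54% in replicates 1 to 4. The share of its remaining calls was 8.37%, 10.8%, 8.77% and 10.9%. The mean difference was -2.74 percentage points ± 0.651 (SD, n = 4), with an exact two-sided sign-flip permutation p of 0.125, which is the smallest that 4 replicates allow. With 4 replicates this permutation test cannot reach 0.05. Intergenic calls over 3000 bp away had the same order in every replicate. They were 6.13% ± 0.616 of the strongest calls and 11.3% ± 2.43 of the remaining calls (SD, n = 4). Replicates 1 and 3 lay close together in these shares, as did replicates 2 and 4, and no label separates these pairs.

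Within the optimal list the members were on average weaker than the rest. Their median rank was 2886, against 2586.5 for the other optimal peaks. They were 52 of the 1000 strongest optimal peaks and 4 of the 100 strongest, the latter a small count, while they made up 7.27% of the whole list. The mean rank percentile, where 100 is the strongest, was 45.1, 47.9, 46.1 and 47.2 in replicates 1 to 4 for members, and 50.4, 50.2, 50.3 and 50.2 for the others. The mean difference was -3.68 percentiles ± 1.31 (SD, n = 4; exact sign-flip permutation p = 0.125, the smallest possible). Against promoter peaks alone the difference was -5.77, whereas against intergenic peaks over 3000 bp away it was 1.44 ± 1.98 (exact permutation p = 0.375). Rank thus separated the members from promoter peaks in all 4 replicates, but not from the more distant intergenic peaks beyond the spread of the replicates.

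All 4 replicates held 165 of the 379 members, or 43.5% (95% interval 38.5 to 48.7), against 48.2% of all optimal peaks. A further 106 members were held by 3 replicates, 79 by 2 and 29 by 1. The pair of replicates 2 and 4 alone held 48 members, or 12.7%, and replicates 1 and 3 alone held 5, or 1.32%. Among the other optimal peaks these shares were 10.8% and 3.91%. By replicate the members were held at 66.0%, 89.7%, 66.5% and 85.2%, and the other optimal peaks at 74.9%, 86.5%, 70.0% and 83.5%. The mean difference was -1.89 percentage points ± 5.50 (SD, n = 4; exact sign-flip permutation p = 0.625). The members were lower in replicates 1 and 3 and higher in replicates 2 and 4, and without replicate 1 the mean difference turned to 0.467.

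**Figure D3:**
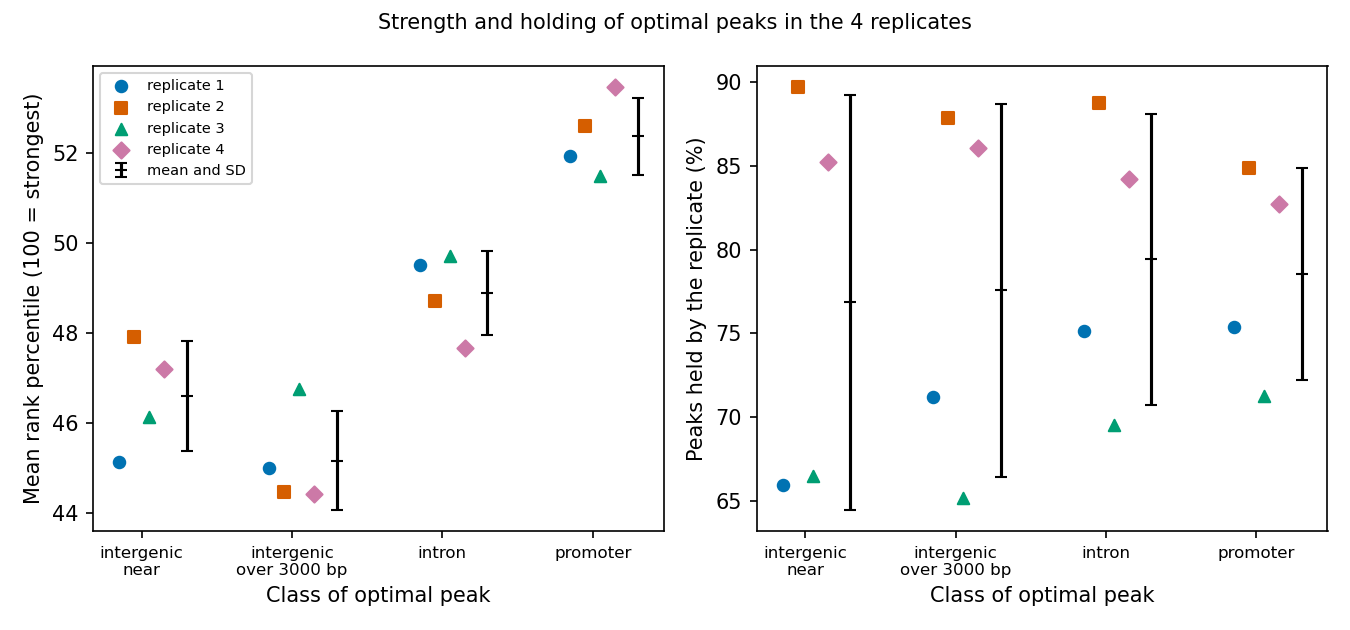
Mean rank percentile (left, 100 is the strongest) and share of peaks held (right, %) for 4 classes of optimal peaks in each replicate, with the mean and SD over the 4 replicates beside the points. The intergenic peaks near genes lie at 45.1 to 47.9 in percentile, below all promoter values, and at 66.0 to 89.7% in holding, where the spread between replicates exceeds the difference between classes.

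The peaks differed in strength and base composition by their place in the gap. Upstream members had a median rank of 2819 and 46.5% of them were held by all 4 replicates, whereas downstream members had a median rank of 2978.5 and 35.6%. Members in convergent gaps had a median rank of 3429 and 33.9% held by all 4, against 2671 and 44.6% in tandem gaps and 2966 and 46.6% in divergent gaps. These groups were compared as a description only, with no test. Members of convergent gaps had a mean rank percentile of 41.1 ± 0.464 over the 4 replicates (SD, n = 4) and those of tandem gaps 48.5 ± 1.77. The replicate values of these groups did not overlap, but all 4 replicates rank the same 59 and 202 peaks. The SD thus shows how far replicates agree and not the spread among peaks. Convergent members also lay farther from the nearest TSS, at a median of 1594 bp against 1297 bp in tandem gaps.

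The summits were A/T-rich against their surroundings. The mean GC content within 50 bp of the summit was 34.8%, against 42.4% and 42.3% in the flanks, a difference of -7.60 percentage points. The summit was below its flanks at 296 members, or 78.1%. The dip was -9.06 at promoter peaks, -7.54 at intron peaks, -6.29 at intergenic peaks over 3000 bp away and -8.06 over all optimal peaks. The order of these classes turned with the flank: against flanks 250 bp away, a distance chosen after seeing the data, the dip was -7.86 at members, -6.90 at promoter peaks, -8.85 at intron peaks and -9.86 at the distant intergenic peaks. Weaker pooled calls that met the same rule differed little from their flanks, by 0.693 points at 500 bp and -0.743 at 250 bp, with 45.6% below the flanks at 500 bp. Weaker pooled calls that overlapped an optimal peak, 1009 over all placements, were set aside here and in the word counts below. The dip did not follow rank among members: it was -7.44 in the 126 strongest, -8.04 in the next 126 and -7.32 in the remaining 127. It was -10.9 at downstream members and -6.35 at upstream ones, and -11.1 in convergent gaps.

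In the replicates' own lists the strong calls that met the rule had a dip of -3.29, -6.52, -4.33 and -8.03 percentage points in replicates 1 to 4. The weak calls of the same placement had differences of 2.24, 0.973, 0.0811 and 0.157. The mean of strong minus weak was -6.41 ± 1.74 (SD, n = 4; exact sign-flip permutation p = 0.125, the smallest possible). The dip was deeper in replicates 2 and 4 than in replicates 1 and 3. Of the 379 summits, 66 lay in soft-masked repeat sequence, or 17.4%, against 21.4% of the other optimal peaks, and the part of repeats in the dip was not tested.

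**Figure D4:**
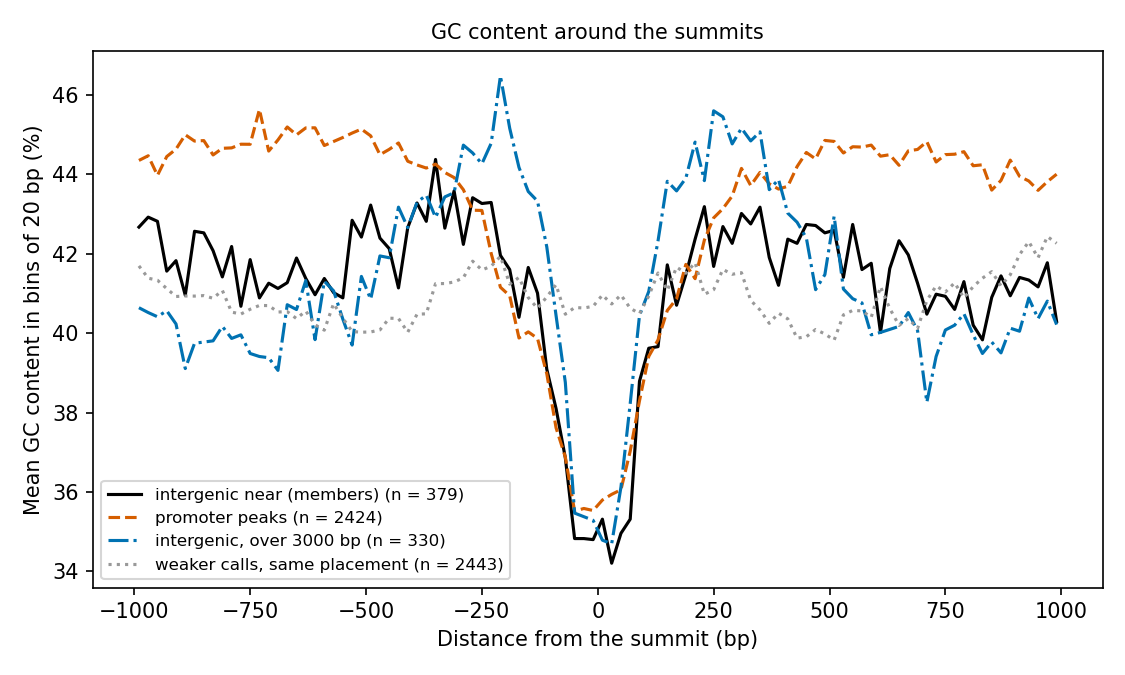
Mean GC content in bins of 20 bp as a function of distance from the summit, for the 379 intergenic peaks near genes, for promoter peaks, for intergenic peaks over 3000 bp from a TSS and for the 2443 weaker pooled calls of the same placement. The optimal classes fall to about the same level at the summit, and the weaker calls stay level across the window. Weaker calls that overlapped an optimal peak were left out.

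Of the words known from housekeeping promoters, the DRE and M1BP words were absent from the member summits. TATCGATA, the DNA replication-related element bound by Dref, was in none of the 379 windows (interval 0 to 0.969%). It was in 2.60% of promoter peaks and 1.41% of all other optimal peaks. It was rare in other intergenic sequence too, at 0.303% of intergenic peaks over 3000 bp away and 0.264% of member flanks. Weaker calls of the same placement held it at 0.164%, so its absence does not set members apart from these. GGTCACACT, the core promoter element bound by M1BP, was also in no member window, against 1.16% of promoter peaks. It was in 0.303% of intergenic peaks over 3000 bp away and in none of the member flanks or weaker calls of the same placement. CATCNCTA, a core promoter word named Ohler motif 7, was in 5 windows, or 1.32% (interval 0.430 to 3.05), against 2.15% of promoter peaks. It was in 1.30% of other optimal peaks and 0.606% of intergenic peaks over 3000 bp away. Weaker calls of the same placement held it at 0.819% and member flanks at 0.264%. The 5 member windows lay near Sesn, lncRNA:CR45251, nan, psq and the gene listed as FBtr0304328_df_nrg. All words were searched on both strands.

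Some words of patterning and chromatin factors were in few windows. CAGGTAG, the site of Zelda, the pioneer factor of the early embryo, was in 6 member windows, or 1.58% (interval 0.583 to 3.41), against 0.396% of flank windows, 0.373% of other optimal peaks and 0.327% of weaker calls of the same placement. The 6 lay near lncRNA:CR45643 (rank 178), lncRNA:CR45750 (425), CG33467 (2118), Brd (4441), FBtr0304328_df_nrg (4914) and CG3106 (5045). TGTTTAC, a forkhead site, was in 14 windows, or 3.69%, against 1.06% of flanks, and in 5.96% of other optimal peaks. GAGAGAG, the repeat bound by GAGA factor, was in 2 windows, near tRNA:Arg-CCT-1-2 and lncRNA:CR45737, or 0.528%, against 1.98% of flanks. AGGNGGC, the core of CTCF sites, was in 7, or 1.85%, against 4.88% of flanks, and 1 of the 7 was the jp window printed above. Other optimal peaks were also below their flanks in these words, at 1.28% against 2.75% for GAGAGAG and 2.13% against 4.53% for AGGNGGC. Whether such differences go beyond the lower GC content of the summits was not tested. Within 25 bp of the member summits the differences of CAGGTAG and AGGNGGC shrank. CAGGTAG was in 0.264% of windows against 0.132% of flanks, and AGGNGGC in 1.32% against 1.45%.

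A/T-rich words were more frequent at the summits than in the flanks. The summit windows were also lower in GC content, at 34.8% against 42.4% and 42.3% in the flanks. Whether any word was more or less frequent than that composition alone would give was not tested. TATAAA was in 65 windows, or 17.2%, against 12.4% of flanks. TTTATG, the site of Caudal, was in 61, or 16.1%, against 11.5%. TGATAA, a site of GATA factors, was in 31, or 8.18%, against 5.28%. TAATTA, a homeodomain core, was in 30, or 7.92%, against 6.20%. Of the E-box words, CACGTG was in none of the windows and in 0.923% of flanks. CAGCTG was in 13, or 3.43%, against 2.77%, and CACATG in 13, or 3.43%, against 3.96%. ACAATG, a Sox site, was in 30, and CGATA, the core bound by BEAF-32, in 47, or 12.4%, against 10.8% of flanks and 18.5% of promoter peaks. AACCGGTT, the Grainyhead site, was in none. The A/T-rich words also rose at other optimal peaks. There TATAAA was in 20.3% against 11.4% of flanks and TTTATG in 13.3% against 10.2%. TGATAA was in 9.50% of other optimal peaks against 6.52% of flanks, and TAATTA in 9.13% against 5.82%.

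Each of the remaining words was in at most 10 windows. CACACACA was in 7 windows, or 1.85%, against 3.03% of flanks, and ATATATAT in 10, or 2.64%, against 1.58%. AGGTCA, a nuclear receptor site, was in 8. TTCNNNGAA, the site of STAT, was in 9. GTGGGAA, the site of Su(H), the transcription factor of Notch signalling, was in 4 windows, near lncRNA:CR43822, pnt, Cpr65Ec and lncRNA:CR44588 (rank 3952). Among all words of 7 bases, ranked on arms 2L, 3L and 4, the one most raised over the flanks was ATATTTG, in 12.6% of 199 windows against 2.51% of flanks. On the arms not used for that ranking (X, 2R and 3R) it was in 7.78% of 180 windows against 2.78%. Other optimal peaks held it in 8.15% of windows, against 3.37% of their flanks. GCTTAAA, the other word among the top 10 that held a G, was in 8.54% against 1.26% on the ranking arms and in 3.33% against 2.22% on the others. Of the top 10 words, 8 were above their flanks on the other arms and 2 were not, namely AAAAATA, at 12.2% against 12.5%, and AATAATA, at 6.11% against 6.94%.

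Noncoding RNA genes were the nearest genes of many members. The nearest TSS was that of a protein-coding gene at 259 members and of a noncoding RNA gene at 106, or 28.0%, spread over 89 such genes. Noncoding RNA genes were nearest at 11.9% of all optimal peaks, a set that includes promoter peaks, and at 32.7% of the 330 intergenic peaks over 3000 bp from a TSS. Members with a noncoding gene nearest had a median rank of 2983, and those with a protein-coding gene 2820. tRNA genes were nearest at 0.921% of all optimal peaks and at 2.73% of the intergenic peaks over 3000 bp from a TSS. They were nearest at 11 members, or 2.90%, which concerned 10 genes, at a median distance of 1482 bp. The strongest of these was near tRNA:Phe-GAA-1-7, 2252 bp away and in the gap it shares with the peptide-coding transcripts of tal, with rank 663 and replicate ranks 829, 571, 1311 and 712. The peak 518 bp upstream of tRNA:Ile-AAT-1-9 had rank 1077 but calls of rank 412 in replicate 3 and 5170 in replicate 4 and none in replicates 1 and 2. Next among the tRNA members, that near tRNA:Gly-GCC-1-4, had rank 1908 and replicate ranks 3706, 1723, 1604 and 2578. The pseudogenes CR31958 and CR31562 were nearest at ranks 1653 and 2338, and snoRNA:Me28S-C788b at rank 2689.

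The nearest protein-coding genes also carried promoter peaks in part. Of 232 such genes, each counted once, 60 had an optimal summit within 500 bp of a TSS, or 25.9% (95% interval 20.4 to 32.0), against 19.9% of all protein-coding genes. The nearest other optimal summit lay at a median of 3077 bp from a member. It was within 1000 bp at 94 members, or 24.8%, against 21.4% of other optimal peaks, 23.4% of intron peaks and 13.6% of intergenic peaks over 3000 bp away. A peak over 3000 bp from every TSS cannot have a promoter peak within 1000 bp, so a lower share there is partly built in. The nearest other summit was a promoter peak at 149 members, another intergenic peak near a gene at 107 and an intron peak at 66.

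Genes named in the lists, of development, chromatin, chaperones and the cell cycle, were nearest at a share of members close to that of all optimal peaks. A gene named in 1 of 23 lists was nearest at 24 members, or 6.33%, against 7.04% of all optimal peaks, and such genes make up 2.24% of all genes. Taking the nearest protein-coding TSS instead, the count was 32. Against 0.461% of all optimal peaks, mesoderm and muscle genes were nearest at 5 members, or 1.32%. Of these, bin had 2 summits 200 bp apart, of rank 422 and of rank 720, and the latter had replicate ranks 1743, 919, 1789 and 1328. Act87E, a muscle actin gene, followed at rank 2020, and how, an RNA-binding protein of tendon and muscle, and lmd, a zinc finger factor of myoblasts, had ranks 3920 and 4127. Forkhead genes were nearest at 4, or 1.06%, against 0.614% of all optimal peaks. Those members were both bin summits, that near FoxL1 (rank 2101) and that near slp1, which is also a head gap and pair-rule gene. The slp1 peak had rank 1459 and replicate ranks 1728, 1902, 1321 and 1307. The shares of single lists rest on few members and were not tested.

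Genes of the epidermal growth factor receptor pathway were nearest at 3 members, or 0.792%, against 0.537% of all optimal peaks. aop, which encodes the ETS repressor Yan, had 2 of the 3, with ranks 781 and 1689. The stronger had replicate ranks 668, 736, 574 and 1002 and was held by all 4, whereas the weaker had ranks 1363, 1379, 7147 and 1583 and was not held by replicate 3. pnt, the ETS activator of the same pathway, had a peak of rank 3498 with replicate ranks 7722, 2505, 14158 and 3038, held by replicates 2 and 4 only. Both ETS genes thus had a summit in the divergent gap upstream of them, at differing strength.

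Each of the other lists of named genes that had a member gave 1 or 2, or at most 0.528% of members. Over all optimal peaks the shares of these lists ran from 0.173% (pair-rule) to 0.787% (homeodomain). The chaperone genes stv, a BAG domain co-chaperone, and Hsc70-3, the BiP of the endoplasmic reticulum, had ranks 806 and 3517. The signalling ligand genes were ths, a fibroblast growth factor, and Pvf3, a growth factor of hemocyte migration, with ranks 4099 and 4809. srp, the GATA factor of hemocytes and fat body, had rank 3597, and peb (hindsight) rank 4724. bcd, the anterior maternal determinant, had a peak 1543 bp upstream at rank 3031, with replicate ranks 16099, 3105, 7630 and 2990.

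Other single members were near Cdk4 (rank 2231), robo2 (2423), fz (2674), Ddc (3728), RpLP0 (3772) and Brd (4441). Of the large families, chemoreceptor genes were nearest at 3 members, at Gr89a with rank 1213 and at Gr93d with ranks 1227 and 3626. The Gr93d summits lay 200 bp apart and shared their calls in replicates 1 and 3, of ranks 1426 and 1833. Cuticle protein genes were nearest at 3, near Cpr76Ba with rank 443, Cpr67Fb with rank 3355 and Cpr65Ec with rank 3512. The chemoreceptor and cuticle protein families were each nearest at 0.792% of members, against 0.134% and 0.0960% of all optimal peaks. These families make up 0.985% and 0.738% of all genes, so the share of members was near their share of genes. Chemoreceptor genes were nearest at 1.21% of intergenic peaks over 3000 bp away, and cuticle protein genes at none. The peak near Cpr76Ba had replicate ranks 998, 271, 1945 and 439. No member had a Hox, dorsoventral, neuronal, tracheal, insulator protein, nuclear receptor, mitochondrial ribosomal protein, small nuclear RNA or microRNA gene of these lists as its nearest gene. Each of these lists was nearest at no more than 0.652% of all optimal peaks, the share of the nuclear receptor list. With 379 members, counts of 0 do not show a lack.

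The members were spread over all arms. They numbered 45 on X, 96 on 2L, 54 on 2R, 101 on 3L, 81 on 3R and 2 on chromosome 4, the latter near lncRNA:CR43437 (rank 610) and Asator (rank 3879). Per megabase of sequence that met the rule there were 43.2 on 3L, 39.3 on 2L, 31.5 on 3R, 27.8 on X, 27.5 on 2R and 21.3 on chromosome 4. Sequence that met the rule made up 8.24% of the arms and held 34.4 members per megabase, against 38.9 optimal peaks per megabase over the arms as a whole. The members ed (rank 1136) and del (rank 3800) lay in annotated transposable elements, which were left out of the gene set.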

How the data were processed

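The deposited peak lists of CG1233 ChIP-seq hold a signal and a −log10 q-value for each call, with the summit position. The authors made 1 list per replicate, a pooled list and an IDR-filtered optimal list in dm6 coordinates, as text files the authors deposited beside the lists state. The caller is not given in the sources used here. The signal scale differs between lists, so signal was used only to rank calls within a list, in decreasing order, and 4 calls on the mitochondrial chromosome in replicate 3 were ranked but not placed. Fragments were 200 to 800 bp, per the labels. No read counts are given, so depth is unknown; intervals are exact Clopper-Pearson intervals at 95% and cover counting error only.

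Summits were placed against the Ensembl annotation of the same assembly with Python 3.11.15, pandas 2.3.3, numpy 2.4.6 and SciPy 1.17.1. Replicates were compared by an exact two-sided sign-flip permutation test over 4 values. GC content and 22 words were read within 50 bp of the summit and in flanks 500 bp away on either side. Placement, holding and the permutation test were tested on simulated data. Of 473 gene list entries 457 matched a gene. The members and lists were chosen with earlier results of these data known. Named are the 20 strongest members, up to 3 of each gene list, the 3 gaps with most members, counts of 5 or fewer and the peaks at the bounds; a few further members and words were picked after their values were seen.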

Additional observations from a re-analysis of the deposited data

Results flagged for a closer look

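Of 62 sets of 4 replicate values, which were 8 summary quantities and the replicate ranks of 54 named members with a call in every replicate, 6 had a value apart from the others by more than Dixon's 95% limit. That limit flags about 1 in 20 sets by chance only where values are normally distributed and sets independent. Ranks are bounded at 1 and can run to 30000, and some sets share calls. The 6 of 62 therefore cannot be set against that rate. In 5 of the 6 the value apart was that of replicate 3, and it was a weaker rank each time. The peak of rank 392 near lncRNA:CR44588 had ranks 367, 326 and 398 in replicates 1, 2 and 4 and 985 in replicate 3. The pseudogene CR31958 (rank 1653) had 2065, 1418 and 1709 against 7335 in replicate 3. At aop (rank 1689) the ranks were 1363, 1379 and 1583 against 7147. At chinmo (rank 2556), whose calls in replicates 1 and 2 are shared with a neighbouring summit, they were 907, 360 and 1293 against 9669. At lncRNA:CR45641 (rank 4107) they were 4384, 3493 and 2835 against 23421. The peak near Hsc70-3 (rank 3517) stood apart in replicate 4, at 14694, against 1899, 3374 and 2198 in replicates 1 to 3.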

How the results depend on the processing

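The count of 379 members fell to 236 when the lower bound was 1000 bp, to 172 among the 2605 strongest optimal peaks and to 165 when all 4 replicates had to hold the peak; under 6 other definitions of the gene set, bounds or summits it stayed within 1.5 times. The share upstream was 77.6% among members held by all 4 replicates, a setting chosen after seeing the data. The rank difference of -3.68 turned to 1.44 against intergenic peaks over 3000 bp away. Leaving out 1 replicate at a time gave -4.15 to -3.15 for the rank difference, -3.57 to 0.467 for the share held, -2.99 to -2.53 for strong minus weak calls, and 171 to 209 for the count held by all replicates. The GC difference ranged from -7.68 to -6.30 under the planned window and flank alternatives and was -7.86 with flanks 250 bp away, added after seeing the data. Of 88 alternatives run for single words, 6 turned the direction against the flanks and 4 went to or from a difference of 0. With 3 replicates the test cannot give a p under 0.25. No paired analysis was possible because the samples form 1 group, with no second group that could share replicate numbers; the differences tested were each taken within a replicate. Depth is unknown, so a peak with no call in a replicate is not shown to be absent there.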
